A study of Mus musculus with 9 samples.

Results

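The GIMAP genes (GTPases of immunity-associated proteins) encode a family of small GTP-binding proteins that are found mainly in lymphocytes. The members were the rows of the expression table whose symbol equalled Gimap1, Gimap3, Gimap4, Gimap5, Gimap6, Gimap7, Gimap8 or Gimap9, which gave 8 of 41388 genes. All 8 passed the filter on low values (a mean of at least 10 normalized counts over the 9 libraries), as did 11599 genes in all.

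The libraries came from murine Tc17 cells, CD8+ T cells that are driven to make IL-17. Naive CD62L+CD44-CD8+ T cells of C57BL/6 mice (8 to 12 weeks old), taken from lymph node and spleen, were cultured for 2 days. Every culture received plate-bound anti-CD3 (5 µg/ml), anti-CD28 (0.5 µg/ml), IL-2 (50 U/ml), TGF-β (0.5 ng/ml), IL-6 (30 ng/ml) and anti-IFN-γ (5 µg/ml). All cultures, in every group, also held 0.2% DMSO. The control cultures (Ctrl) had this solvent alone. The DMF cultures had in addition 20 µM dimethyl fumarate, an electrophilic drug that depletes glutathione. The DMF + GSH cultures had the same dose of DMF with 50 µM glutathione. Each group held 3 libraries, numbered 1 to 3. Number 1 belonged to the first preparation batch in every group, and numbers 2 and 3 to the second. The labels do not say whether libraries with one number came from one animal or whether mice were pooled, so p-values measure the spread between these libraries.

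GIMAP proteins share an AIG1-type GTP-binding domain, and several carry a C-terminal tail that anchors them in intracellular membranes. They are best known for keeping resting T cells alive. Loss of Gimap5 leads to T lymphopenia in rats and mice, and loss of Gimap1 depletes mature T and B cells. Several of them are abundant in naive T cells and decline after activation.

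The 8 genes formed one cluster of 123.618 kb on chromosome 6 (GRCm38, GENCODE vM21), between positions 48647234 and 48770851. In this order they were Gimap8, Gimap9, Gimap4, Gimap6, Gimap7, Gimap1, Gimap5 and Gimap3. Gimap6 and Gimap3 lie on the minus strand and the others on the plus strand. All 8 are annotated as protein-coding. Gimap3 and Gimap5 are close relatives, and their coding sequences (903 and 924 bases) were 85.3% identical when aligned without gaps at an offset of 12 bases. They contained 7 identical stretches of at least 50 bases, the length of a sequencing read. The stretch around the P-loop and the longest one are printed because reads falling wholly inside them cannot be placed by sequence alone. The capitals mark the 24 bases that encode the P-loop, which grips the phosphates of GTP. Both are given in the coding direction, at chr6:48765872-48765928 (minus strand) and chr6:48765681-48765820 (minus strand) in Gimap3, and at chr6:48752576-48752632 and chr6:48752684-48752823 (plus strand) in Gimap5.
P-loop stretch of Gimap3 and Gimap5: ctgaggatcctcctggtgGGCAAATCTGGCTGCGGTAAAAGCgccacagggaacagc
Longest stretch, of 140 bases: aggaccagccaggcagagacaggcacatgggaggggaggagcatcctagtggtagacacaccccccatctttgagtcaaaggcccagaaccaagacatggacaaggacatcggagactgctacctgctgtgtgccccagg

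Of the different 50-base words in the transcripts, 7.52% of those of Gimap3 and 4.53% of those of Gimap5 occurred in the other gene. No other pair of members shared such a word. A predicted readthrough transcript, Gm28053, shares exon bases with Gimap1, Gimap5 and Gimap7, and it held at most 4.45 normalized counts in any library. Gimap1os, a transcript from the opposite strand, overlaps 36.0% of the exon bases of Gimap1. No source used here says whether the counting used strand, so reads of Gimap1 and Gimap1os may not be separable. Gimap1os itself ranged from 84.6 to 138 normalized counts.

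The depth was 7671772 to 14511926 reads per library. The members were covered by at least 112 reads (Gimap7 in Ctrl replicate 3) and at most 7645 reads (Gimap4 in DMF + GSH replicate 2). All 5 T cell markers and both CD8 markers were well above 10 normalized counts in every group. The markers of CD4 T cells, NK cells, erythroid cells and platelets each summed to at most 8.31 normalized counts in any library. Among 4 B cell markers only Cd79b passed the filter, at 56.1 to 87.3 normalized counts. Ctrl replicate 3 held 119 normalized counts of Lyz2 and 58.3 of Csf1r, which are myeloid genes, whereas the other 8 libraries held at most 10.6 and 5.83. The 4 myeloid markers in the table summed to 9.35 to 189 normalized counts in Ctrl, 6.35 to 24.2 in DMF and 18.5 to 22.3 in DMF + GSH, and their part in the results on the family was not tested.

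All 8 members were expressed in the Ctrl cells, with Gimap4 far ahead. Per kb of exon, the level of Gimap4, which has been linked to the timing of T cell death, was 2877 ± 392 normalized counts (SD, n = 3). Gimap6, which binds an autophagy protein, followed at 773 ± 182 normalized counts per kb. Gimap3 had 573 ± 114, Gimap9 516 ± 54.9, Gimap8 425 ± 80.6 and Gimap1 370 ± 28.2 normalized counts per kb. Gimap5 (127 ± 14.8 per kb) and Gimap7 (102 ± 33.5 per kb) were lowest. In Ctrl the libraries of neighbours in this order overlapped except between Gimap4 and Gimap6 and between Gimap1 and Gimap5. Ranked by mean normalized count among the 11599 genes, Gimap4 was 324th and Gimap7 7214th. In every DMF and DMF + GSH library Gimap4 was again the highest member and Gimap7 the lowest.

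**Figure D1:**
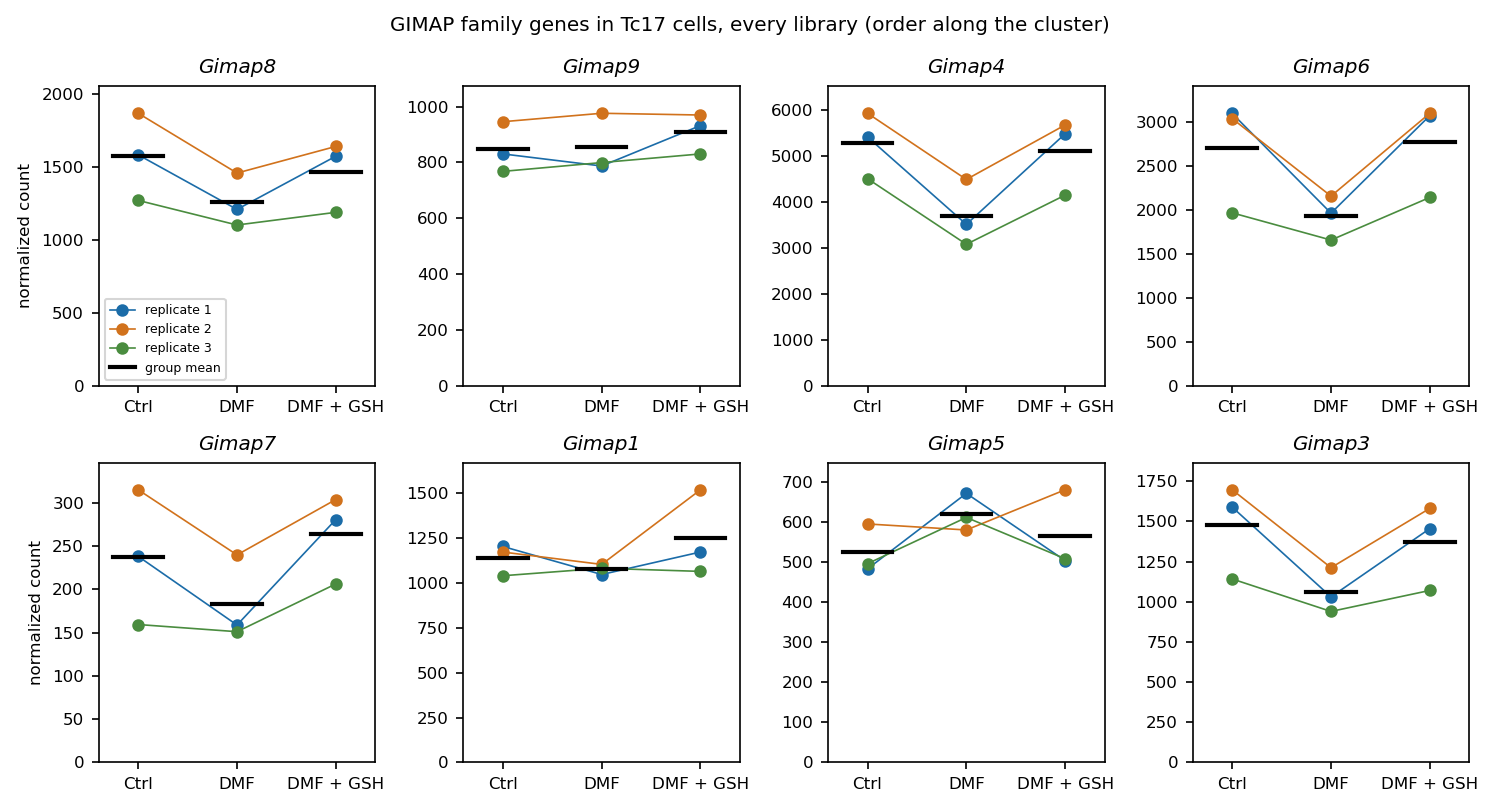
Normalized count (y axis, linear, from 0) of each GIMAP gene in the 9 libraries, by group (x axis), with libraries of one replicate number joined by a line and group means as black bars. Gimap3, Gimap4, Gimap6, Gimap7 and Gimap8 dip in DMF in each of the 3 replicate numbers, Gimap9 is nearly level, and Gimap5 is higher in DMF for numbers 1 and 3.

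The first comparison asked what DMF did to the family. The summed normalized count of the 8 genes was 13785 ± 2181 in Ctrl and 10675 ± 1420 in DMF (mean ± SD, n = 3). Gimap4 had 5415, 5930 and 4508 normalized counts in Ctrl replicates 1, 2 and 3, and 3513, 4491 and 3081 in DMF. All 3 DMF libraries lay below all 3 Ctrl libraries. Its log2FC was -0.52 (SE 0.163) with p adj = 0.0386 (limma with the preparation batch, Benjamini-Hochberg over 11599 genes), so Gimap4 fell. With the replicate number as a block, p adj was 8.02e-07. Without Ctrl replicate 3 its log2FC was -0.63 by batch (p adj = 0.0217) but -0.50 with the block (p adj = 2.63e-05). Leaving out Ctrl replicate 1 or 2, DMF replicate 1 or 3, or DMF + GSH replicate 1 raised its p adj to between 0.0611 and 0.177, whereas with the replicate block it stayed below 0.05 in all 11 fits.

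In limma with the batch term Gimap4 was the only member past the threshold, 1 of 8 lower, against 13.3% of all tested genes lower and 14.6% higher. That share is near the background. DESeq2 with the same term called 3 members lower, Gimap3 (p adj = 0.0269), Gimap4 (p adj = 0.00800) and Gimap6 (p adj = 0.0250). Over all genes DESeq2 called 3074, lower or higher. When the batch was replaced by the replicate number, 5 members were lower and 1 was higher. The background of that fit was 21.4% lower and 23.7% higher. The median log2FC of the 8 members was -0.33, beside 0.01 over all genes. No member met the stricter criterion of p adj below 0.01 with a log2FC of at least 0.75 in size, which 2.89% of genes met by batch and 6.8% in the blocked fit.

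Gimap6 had 3100, 3042 and 1969 normalized counts in Ctrl replicates 1 to 3 and 1966, 2160 and 1660 in DMF. Each DMF library was below the Ctrl library of its number, but DMF replicate 2 was above Ctrl replicate 3. The log2FC was -0.47 (SE 0.180), with p adj = 0.0789 by batch and 1.08e-05 with the replicate block. Gimap3, which like Gimap5 interacts with proteins of the Bcl-2 family, had 1589, 1697 and 1142 normalized counts in Ctrl and 1030, 1212 and 940 in DMF. The groups overlapped through the same pair of libraries. Its log2FC was -0.46 (SE 0.176), with p adj = 0.0747 by batch and 1.59e-05 with the block. Without Ctrl replicate 3 both genes passed the threshold by batch, Gimap6 with a log2FC of -0.66 (p adj = 0.0138) and Gimap3 with -0.64 (p adj = 0.0179). Both also passed by batch without DMF replicate 2 (p adj = 0.0349 and 0.0343). Those fits left DMF replicate 3 or Ctrl replicate 2 without its partner library. With the block, the log2FC was -0.54 for Gimap6 and -0.51 for Gimap3 without Ctrl replicate 3. Without DMF replicate 2 it was -0.46 and -0.45. Gimap3 also passed by batch without DMF + GSH replicate 3 (p adj = 0.0431).

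Gimap8, a larger protein with more than one GTP-binding domain, had 1582, 1866 and 1270 normalized counts in Ctrl and 1208, 1457 and 1101 in DMF. The libraries were ordered as for Gimap3, and the groups overlapped. The log2FC of Gimap8 was -0.32 (SE 0.166), with p adj = 0.177 by batch and 0.000397 with the block. By batch it ran from -0.16 without Ctrl replicate 2 to -0.47 without Ctrl replicate 3. With the block, fits that left out a library gave -0.37 to -0.26. Gimap7, which hydrolyses GTP as a dimer, had 238, 315 and 159 normalized counts in Ctrl and 159, 240 and 151 in DMF. Replicate 3 barely differed between the groups. The log2FC of Gimap7 was -0.35 (SE 0.264), with p adj = 0.342 by batch and 0.0201 with the block, and it was called in 8 of 11 fits that kept a block. The call was lost without Ctrl replicate 1 or 2 or DMF replicate 1 (p adj 0.0944 to 0.175). By batch the estimate depended on single libraries, from -0.10 without Ctrl replicate 2 to -0.63 without Ctrl replicate 3. With the block, fits that left out a library gave -0.46 to -0.22.

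For 2 members the estimates lay close to 0. Gimap1 had 1202, 1171 and 1039 normalized counts in Ctrl and 1046, 1103 and 1081 in DMF, with a log2FC of -0.08 (95% CI -0.35 to 0.19, p adj = 0.660). Gimap9 had 830, 946 and 768 normalized counts in Ctrl and 787, 976 and 799 in DMF. Its log2FC was 0.01 (95% CI -0.24 to 0.26, p adj = 0.959), and its sign depended on the scaling (-0.02 after quantile normalization). Neither gene was called with the replicate block (p adj = 0.451 and 0.926).

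Gimap5, the survival gene of the cluster, had 483, 595 and 496 normalized counts in Ctrl and 672, 580 and 612 in DMF. Replicates 1 and 3 were higher in DMF, and replicate 2 was slightly lower. Its log2FC was 0.25 (SE 0.130), with p adj = 0.180 by batch and 0.0440 with the block. The call for Gimap5 held in 5 of 11 blocked fits, and was lost without any 1 of the Ctrl libraries, DMF replicate 1 or 3, or DMF + GSH replicate 3 (p adj 0.0521 to 0.362). Gimap5 had a log2FC between 0.12 and 0.41 across all fits that left out a library. Its share of the summed family count was 3.35 to 4.37% in Ctrl and 4.75 to 6.49% in DMF, while that of Gimap4 was 37.5 to 39.7% in Ctrl and 32.7 to 36.8% in DMF. In bulk RNA, fewer cells with a transcript and less of it per cell cannot be told apart.

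**Figure D2:**
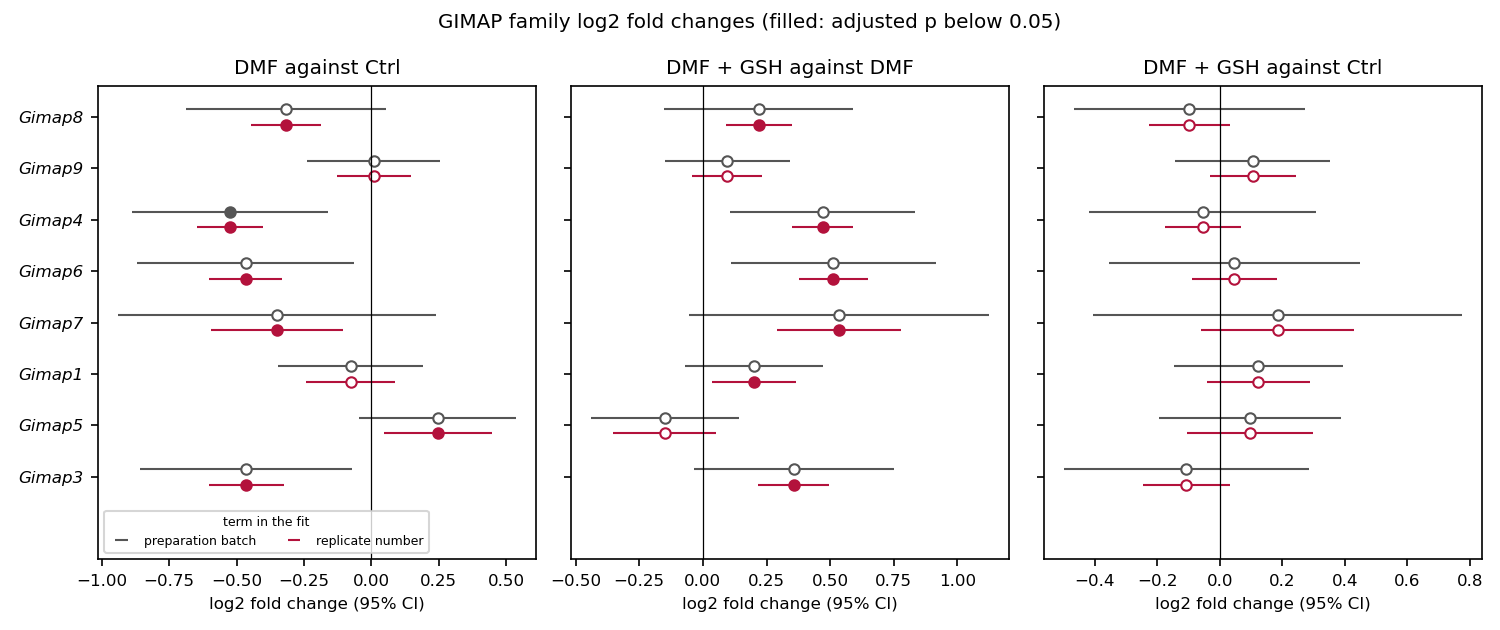
Log2 fold change (x axis) of each GIMAP gene (y axis) with its 95% confidence interval in the 3 comparisons, fitted with the preparation batch (grey) or the replicate number (red); filled points have an adjusted p below 0.05. For DMF against Ctrl, Gimap4 is filled in both fits, and Gimap3, Gimap5, Gimap6, Gimap7 and Gimap8 with the replicate number only.

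Counted by overlap alone, Gimap4 was the single member whose DMF and Ctrl libraries were fully apart, 1 of 8 against 41.3% of all tested genes. Of the 8 members 5 were lower in DMF in all 3 replicate numbers and none was higher in all 3, and 66.3% of all genes moved one way in all 3 numbers. The 66.3% counts genes of either direction. No difference between the family and other genes was tested.

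General T cell markers differed between DMF and Ctrl as well. The 5 markers summed to 18460 to 22190 normalized counts in Ctrl, 15673 to 18753 in DMF and 18483 to 23017 in DMF + GSH. By batch 1 of the 5 was lower in DMF, the kinase gene Lck (log2FC -0.25, p adj = 0.0341), and none was higher. With the block 4 were lower and 1 was higher. Cd3g, a chain of the T cell receptor complex, had a log2FC of -0.53 (p adj = 0.0569 by batch and 9.04e-07 with the block), beside -0.52 for Gimap4. Cd3d had -0.34 (p adj = 0.151 and 0.000448) and Cd3e -0.23 (p adj = 0.146 and 0.00135), whereas Cd247 had 0.23 (p adj = 0.109 and 0.0107). Of the 2 CD8 markers Cd8a was higher in both fits (log2FC 0.31, p adj = 0.0378 and 0.000135). Cd8b1 had a log2FC of 0.06 (p adj = 0.793 and 0.411). Between DMF + GSH and DMF, Cd3g had a log2FC of 0.62 (p adj = 0.0404 by batch), and no other of these markers was called by batch. With the block Cd3d (log2FC 0.39, p adj = 0.000113), Cd3e (0.28, p adj = 0.000277) and Lck (0.22, p adj = 0.00404) were higher. Cd8a was lower with the block (log2FC -0.22, p adj = 0.00331). Cd247 (log2FC -0.16) and Cd8b1 (-0.05) were called in neither fit. The part of these markers in the results on the family was not tested.

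The second comparison asked whether glutathione changed the levels seen with DMF. It shares the DMF libraries with the first, so opposite signs are built in to some degree. Gimap4 had 5485, 5676 and 4150 normalized counts in DMF + GSH replicates 1 to 3, each above the DMF library of its number. The log2FC against DMF was 0.47 (SE 0.163), with p adj = 0.0629 by batch and 3.67e-06 with the replicate block. Gimap6 had 3076, 3103 and 2145 normalized counts, with a log2FC of 0.51 (SE 0.180, p adj = 0.0660 by batch and 4.80e-06 with the block). For both genes DMF + GSH replicate 3 lay within the range of the DMF libraries. Both were called by batch in DESeq2 (p adj = 0.0220 and 0.0176), and in limma without Ctrl replicate 3 (p adj = 0.0497 and 0.0279), DMF replicate 2 (p adj = 0.0123 and 0.0300) or DMF + GSH replicate 3 (p adj = 0.0207 and 0.0242).

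Gimap3 had 1456, 1581 and 1071 normalized counts in DMF + GSH (log2FC 0.36, p adj = 0.166 by batch and 0.000280 with the block), and was called by batch without DMF + GSH replicate 3 (log2FC 0.52, p adj = 0.0465). Gimap7 had 281, 304 and 206 (log2FC 0.53, p adj = 0.166 by batch and 0.00116 with the block). Gimap8 had 1572, 1639 and 1188 normalized counts (log2FC 0.22, p adj = 0.358 by batch and 0.00829 with the block), and its blocked call was lost without DMF replicate 1 (p adj = 0.0756) or DMF + GSH replicate 1 (p adj = 0.0737). These 3 genes were higher than in DMF in every replicate number. Gimap1 had 1172, 1518 and 1064, where replicate 2 stood highest and replicate 3 was just below its DMF library (log2FC 0.20, p adj = 0.250 by batch and 0.0490 with the block). Gimap1 was called in 6 of 11 blocked fits. The call was lost without Ctrl replicate 2 or 3 or DMF replicate 1 or 2 (p adj 0.0562 to 0.255), and without DMF + GSH replicate 2, where its blocked log2FC was 0.072 (p adj = 0.524).

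Gimap9 had 932, 970 and 830 normalized counts in DMF + GSH (log2FC 0.10, 95% CI -0.15 to 0.34). Gimap5 had 504, 681 and 509 normalized counts, lower than in DMF for replicates 1 and 3 and higher for replicate 2. Its log2FC against DMF was -0.15 (95% CI -0.44 to 0.14, p adj = 0.428 by batch and 0.227 with the block). The blocked fit called Gimap5 lower without DMF replicate 2 (log2FC -0.32, p adj = 0.00817) and without DMF + GSH replicate 2 (log2FC -0.27, p adj = 0.0492). Across all fits that left out a library its log2FC ran from -0.32 to -0.03.

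With the batch term 0 of 8 members passed the threshold for DMF + GSH against DMF in limma. The background of that fit was 12.4% lower and 9.99% higher. At an unadjusted p under 0.05 there were 2 of 8 members, beside 4392 of 11599 genes. On recovered reads with the batch term edgeR called 0 members (2649 of all genes) and DESeq2 called 2 (2602 of all genes). With the replicate block 6 of 8 were higher and none was lower, against 19.9% of all genes higher and 21.6% lower. The median log2FC of the members was 0.29, beside -0.0017 over all genes. No member met the stricter criterion, which 0.543% of genes met by batch and 5.69% with the block. No member had non-overlapping groups (38.3% of all genes), and 5 of 8 were higher in all 3 numbers (65.3% of all genes moved one way).

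The third comparison set DMF + GSH against Ctrl. The summed family count was 13703 ± 2256 in DMF + GSH, and 0 of 8 members passed the threshold in either limma fit or with edgeR or DESeq2. Over all genes 0% passed by batch and 0.0345% with the block. At an unadjusted p under 0.05 there were also 0 members in either limma fit. Of 11599 genes 222 were under it by batch and 599 with the block. The log2FC of the members ran from -0.11 (Gimap3) to 0.18 (Gimap7), with a median of 0.07. With the block, the 95% CI was -0.18 to 0.07 for Gimap4, -0.25 to 0.03 for Gimap3 and -0.09 to 0.18 for Gimap6. With the batch term the intervals were -0.42 to 0.31, -0.50 to 0.29 and -0.36 to 0.45. No member had non-overlapping groups (4.47% of genes), and 4 of 8 moved one way in all 3 numbers, 2 lower and 2 higher (25.9% of genes).

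Gimap3 and Gimap5 are neighbours in the genome and close in sequence, and their estimates for DMF against Ctrl had opposite signs, though limma called neither by batch (DESeq2 called Gimap3, p adj = 0.0269). The pair was chosen after their values had been seen, so the ratio is given as a description. The log2 ratio of Gimap5 to Gimap3 was -1.72, -1.51 and -1.20 in Ctrl replicates 1 to 3, -0.62, -1.06 and -0.62 in DMF, and -1.53, -1.21 and -1.07 in DMF + GSH. All 3 DMF ratios were above all Ctrl and all DMF + GSH ratios. The mean difference in log2 ratio between DMF and Ctrl was 0.71, higher in 3 of 3 replicate numbers (exact two-sided permutation p = 0.1, the smallest that 3 against 3 libraries allow). Between DMF + GSH and DMF it was -0.51 (exact permutation p = 0.1), and between DMF + GSH and Ctrl 0.20 (exact permutation p = 0.5). These are 3 ratio comparisons, and none can pass a threshold of 0.05 in this permutation. The permutation does not use the replicate numbers, so the limit is that of unpaired libraries. The ratio was not tested with the replicate block. Reads from the identical stretches printed above can pull the counts of both genes towards each other if they were assigned to either gene. No source used here states how such reads were counted.

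The members also differed between replicate numbers. Averaged over the 3 groups on the log2 scale, replicate 3 was lowest for all 8 genes. The replicate means of a member spanned 0.20 to 0.73 log2 units, and the group means spanned 0.10 to 0.53. For Gimap4 the replicate means were 12.20, 12.38 and 11.92 log2 normalized counts for numbers 1, 2 and 3. As number 1 was the first batch and number 3 shared the second with number 2, the batch term left the gap between numbers 2 and 3 in the residual spread. The SE of the Gimap4 log2FC was 0.163 with the batch term and 0.0577 with the replicate block.

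Across the 9 libraries Gimap3, Gimap4, Gimap6, Gimap7 and Gimap8 followed each other, with Pearson's r between 0.89 and 0.97 for their 10 pairs. This is a description over libraries that share treatment and replicate number. The pair of Gimap3 and Gimap8, which lie at opposite ends of the cluster, had the highest r. After the replicate means had been removed, r for these 10 pairs was 0.80 to 0.97. Gimap5 had r between -0.24 and 0.34 with the other members, and -0.75 to 0.08 after removal of the replicate means. Gimap1 and Gimap9 lay in between.

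**Figure D3:**
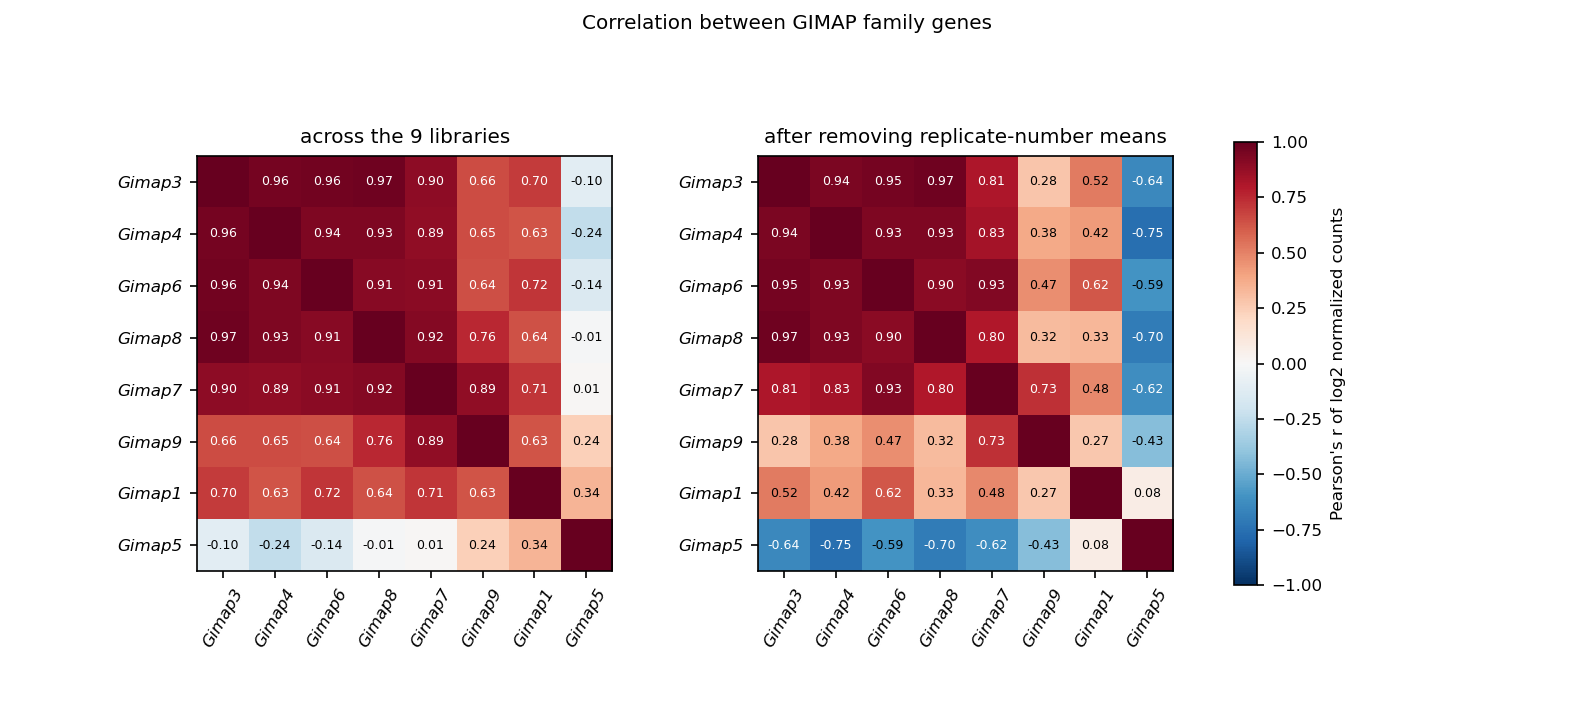
Pearson's r between log2 normalized counts of each pair of GIMAP genes over 9 libraries (left) and after subtraction of the mean of each replicate number (right), from -1 (blue) to 1 (red). Gimap3, Gimap4, Gimap6, Gimap7 and Gimap8 form a block of 0.80 or more in both panels, and Gimap5 is negative with 6 members on the right.

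The genes whose profile over the 9 libraries was most like the mean profile of the members were Slfn2 (r = 0.988), Trim21 (0.979), Slc35a2 (0.976), Cd27 (0.975) and Pold4 (0.965), out of 9384 candidates with a mean of at least 50. Slfn2 had 1937, 2297 and 1566 normalized counts in Ctrl, 1695, 1847 and 1516 in DMF and 2054, 2283 and 1645 in DMF + GSH. Slfn2 is known for keeping T cells quiescent, and Cd27 is a costimulatory receptor of naive and memory T cells. The most opposite profiles were those of Socs2 (r = -0.980), Cep78 (-0.975) and Tfrc (-0.973). Tfrc, the transferrin receptor of dividing cells, was highest in replicate 3 of every group (18617 normalized counts in Ctrl, 19086 in DMF and 17984 in DMF + GSH).

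Genes next to the cluster were described in the same way. Of 42 annotated genes within 300 kb that are not members, 24 were in the table and 9 passed the filter on low values. Between DMF and Ctrl, 2 of the 9 were lower and 1 higher by batch, and 4 lower and 2 higher with the block. Repin1, which encodes a zinc-finger protein, rose from 163 ± 29.3 to 395 ± 40.0 normalized counts (log2FC 1.28, p adj = 0.00381). Tmem176a, a membrane protein gene on the other side of the cluster, fell from 29.1 to 8.56 normalized counts (log2FC -1.60, p adj = 0.0181). Zfp467 fell from 26.9 to 12.2 (log2FC -1.08, p adj = 0.0364). The antisense transcript Gimap1os had a log2FC of 0.04 (p adj = 0.899).

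**Figure D4:**
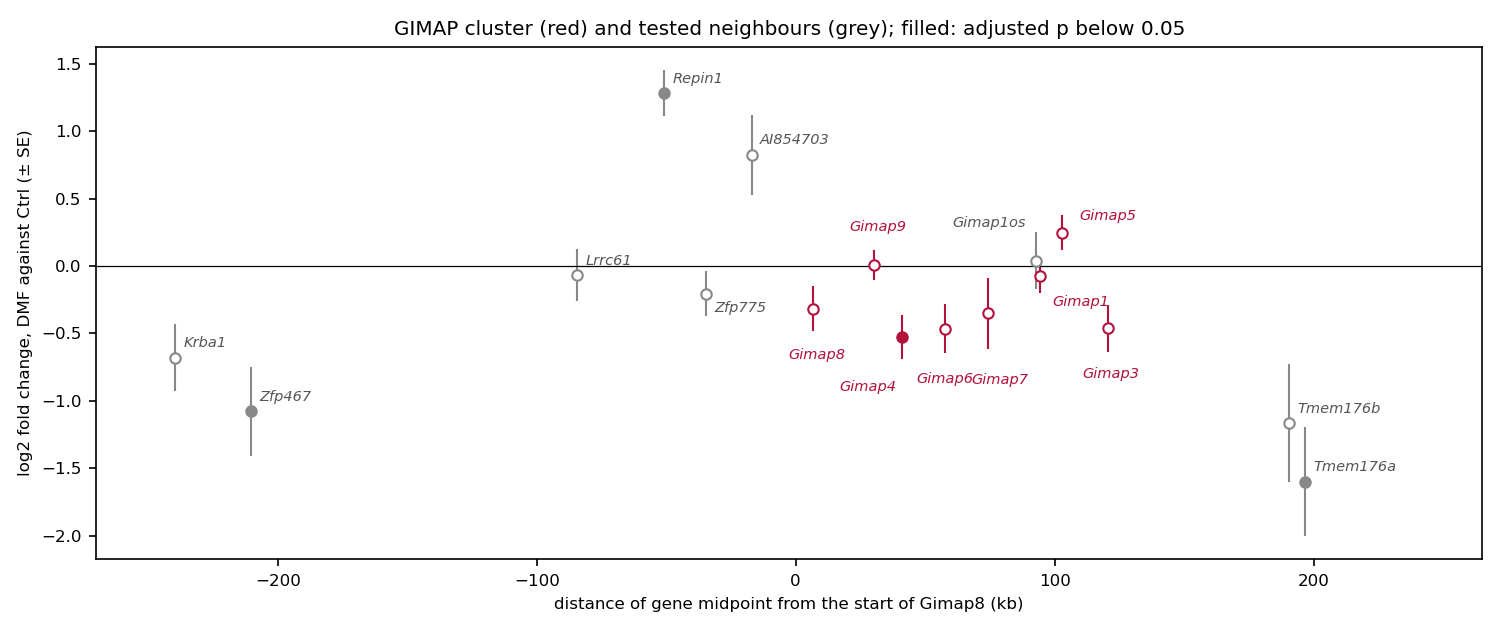
Log2 fold change of DMF against Ctrl with its SE (y axis, batch fit) by distance of the gene's midpoint from the start of Gimap8 in kb (x axis), for GIMAP genes (red) and tested neighbours within 300 kb (grey); filled points have an adjusted p below 0.05. Members lie between -0.52 and 0.25, whereas Repin1 is at 1.28 and Tmem176a at -1.60.

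Promoter sequence was searched for a fixed list of words, set together with the gene lists. RefSeq (GRCm38.p6) gave 9 windows for the 8 members, each from 250 bases before to 50 bases after a start, with 2 for Gimap8. Words were searched on both strands, and a match is a description only. TGTTTAC (a FOXO word) was in the window of Gimap3 alone and in 3.65% of all 32851 windows. TGTGGT (RUNX) was in those of Gimap1, Gimap4 and Gimap7 and in 16.8% of all windows. CACCC (KLF) was in those of Gimap3, Gimap4, Gimap5, Gimap8 and Gimap9 and in 57.5% of all, and GGAA (the ETS core) was in every member's window and in 96.0% of all. CCGGAAGT (a longer ETS word that contains the core), TGAGTCA (AP-1), CACGTG (E-box) and TTCCTGGAA (STAT, which also contains GGAA) were in no member window, and in 3.89%, 5.20%, 7.15% and 0.807% of all windows. The window of Gimap4, the only member that limma called lower by batch, is shown with those of the related pair Gimap3 and Gimap5. Each runs 5′ to 3′ on its gene's strand and ends before the first annotated start, and capitals mark the FOXO, RUNX and KLF words on either strand.
Gimap4, chr6:48684328-48684548 (plus strand): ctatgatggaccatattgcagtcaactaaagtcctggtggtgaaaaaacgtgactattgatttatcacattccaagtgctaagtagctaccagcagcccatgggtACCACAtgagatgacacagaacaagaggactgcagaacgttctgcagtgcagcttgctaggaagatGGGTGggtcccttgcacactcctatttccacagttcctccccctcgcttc
Gimap3, chr6:48770852-48771101 (minus strand): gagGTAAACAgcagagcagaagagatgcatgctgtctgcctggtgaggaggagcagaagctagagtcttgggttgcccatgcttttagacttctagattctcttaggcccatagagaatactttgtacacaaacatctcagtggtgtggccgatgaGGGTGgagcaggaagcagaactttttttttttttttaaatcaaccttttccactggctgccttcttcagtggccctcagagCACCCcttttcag
Gimap5, chr6:48745947-48746196 (plus strand): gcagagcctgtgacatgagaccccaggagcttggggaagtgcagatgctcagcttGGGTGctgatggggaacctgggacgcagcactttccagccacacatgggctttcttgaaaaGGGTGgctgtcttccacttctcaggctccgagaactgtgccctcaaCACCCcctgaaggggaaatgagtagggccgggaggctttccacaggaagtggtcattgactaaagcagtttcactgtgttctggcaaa

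Genes that act with the family were examined as lists, described by counts beside the background given above. Of 11 genes for partners and regulators of GIMAP proteins, 10 were tested, and for DMF against Ctrl 1 was lower and 2 were higher by batch, and 2 lower and 2 higher with the block (median log2FC -0.11). Bcl2l1, the survival factor Bcl-xL, rose (492 to 769 normalized counts, log2FC 0.65, p adj = 0.00993). Bax, its death-promoting counterpart, also rose (1025 to 1431, log2FC 0.49, p adj = 0.0252). Ctnnb1 (β-catenin), which the kinase GSK3β marks for degradation, fell (log2FC -0.19, p adj = 0.0404). Bcl2 itself had a log2FC of 0.08 (p adj = 0.447). Bcl2l11, which encodes the death factor Bim, was lower with the replicate block (log2FC -0.50, p adj = 0.138 by batch and 0.000183 with the block). Gabarapl2, the autophagy partner of Gimap6, had a log2FC of -0.12 (p adj = 0.521).

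Of 15 genes of resting or naive T cells, all tested, 9 were lower in DMF and 1 was higher by batch, and 13 lower and 1 higher with the block (median log2FC -0.76). S1pr1, a receptor for exit from lymph nodes, fell from 1211 to 292 normalized counts (log2FC -1.97, p adj = 0.00649). Tcf7, a transcription factor of naive T cells, fell from 10925 to 4868 (log2FC -1.14, p adj = 0.0163), and Il7r, the receptor for the survival cytokine IL-7, from 1535 to 759 (log2FC -1.05, p adj = 0.00649). Klf6 rose (log2FC 0.56, p adj = 0.0471). Of 10 activation genes 5 were higher and 1 was lower by batch, and 7 higher and 1 lower with the block (median log2FC 0.36). Cd44 (log2FC 0.33, p adj = 0.0649 by batch and 0.000445 with the block) and Irf4 (log2FC 0.18, p adj = 0.158 and 0.0425) made up the difference. Il2ra (CD25) rose from 8656 to 17797 normalized counts (log2FC 1.05, p adj = 0.0170), and Mki67, a proliferation gene, fell (log2FC -0.49, p adj = 0.00650).

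Other families of GTP-binding proteins were counted as well, and no difference from the GIMAP genes was tested. Of 14 tested immunity-related GTPases and guanylate-binding proteins, which are induced by interferon, 4 were higher and 1 lower in DMF by batch, and 6 higher and 4 lower with the block. Iigp1 rose from 249 to 720 normalized counts (log2FC 1.55, p adj = 0.00124) and Gbp2 fell from 4560 to 2234 (log2FC -1.10, p adj = 0.0145). Of 8 tested septins, which form filaments and share ancestry with the GIMAP GTPase fold, 3 were higher and none lower by batch, and 3 higher and 1 lower with the block. The lower one was Sept6 (log2FC -0.19, p adj = 0.107 by batch and 0.00923 with the block). The median log2FC of the septins was 0.18.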

How the data were processed

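RNA of 9 cultures (total RNA of integrity above 9, poly(A) selection, NEBNext Ultra, 50 bp single-end reads) had been sequenced. Per the labels the reads were checked with FastQC and aligned with STAR 2.4.0b to GRCm38. No source used here gives the settings for strand and multiply mapped reads. The authors deposited 1 table of counts divided by a size factor per library. The deposited signal values are thus normalized counts, and 100% of them were whole multiples of 1 read within 0.01, so reads were recovered for depth and count tests. All 9 sample columns were used (0 others).

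Values were tested with limma 3.58.1 (R 4.3.3) on log2(normalized count + 1), so fold changes of low genes are understated. The fit held group and preparation batch over 9 libraries (11599 genes with a mean of at least 10; threshold adjusted p 0.05, Benjamini-Hochberg). The plan was limma for normalized counts, with edgeR instead if the table held raw counts. As the table is normalized, edgeR 4.0.16 and DESeq2 1.42.0 were run on recovered reads as alternatives. The titles number the libraries. Deviations from group means correlated at 0.447 to 0.578 between same-numbered libraries (9 pairs) and at -0.471 to -0.0621 between others (18 pairs). Deviations cancel within a group, so positive values between same-numbered libraries force negative ones between others on average. From the positive correlations the numbers were taken to pair the libraries. The blocked value is given where it changes a member's call or a list's count. Permutation tests were exact and two-sided. The scripts were tested on simulated data.

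Named genes were the 8 members, their overlapping genes, neighbours within 300 kb, fixed lists and the 5 most and 3 least similar profiles. The members and lists were chosen with earlier results of these data known. Positions came from GENCODE vM21 (40254 of 41388 identifiers matched) and promoters from RefSeq. Protein sequences were not used here.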

Additional observations from a re-analysis of the deposited data

How the results depend on the processing

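The replicate block raised the number of calls. Members called for DMF against Ctrl went from 1 to 6 with the replicate block, in limma and in edgeR, and to 3 with DESeq2 and the batch term. For DMF + GSH against DMF they went from 0 to 6 with the block in both tools and to 2 with DESeq2. DESeq2 called 3074 of all genes for DMF against Ctrl and 2602 for DMF + GSH against DMF. Over all genes, calls went from 3242 to 5224 with the block (edgeR 5211) for DMF against Ctrl, from 2592 to 4814 (edgeR 4877) for DMF + GSH against DMF, and from 0 to 4 (edgeR 14) for DMF + GSH against Ctrl. Changes of the pseudocount, the minimum, the scaling, the batch term, voom and robust moderation left 1 and 0 members called, as did edgeR with the batch term on recovered reads (3276 and 2649 genes).

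Leaving out 1 library moved the member counts between 0 and 3 for DMF against Ctrl and between 0 and 3 for DMF + GSH against DMF, and with the replicate block between 4 and 6 for both. No member was called for DMF against Ctrl without Ctrl replicate 1 or 2, DMF replicate 1 or 3, or DMF + GSH replicate 1, and 3 were called without Ctrl replicate 3 or DMF replicate 2. All genes called ranged from 110 to 3789 (block 4102 to 5466) for DMF against Ctrl, from 10 to 3097 (block 3581 to 4873) for DMF + GSH against DMF, and from 0 to 0 (block 0 to 16) for DMF + GSH against Ctrl. The lowest counts came without DMF replicate 1 (110 genes) and without DMF + GSH replicate 1 (10 genes). The member median ranged from -0.55 to -0.13 (block -0.41 to -0.24), from 0.16 to 0.44 (block 0.23 to 0.37) and from -0.12 to 0.18 (block -0.01 to 0.09) in the 3 comparisons. The cause was not tested.

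Directions for DMF against Ctrl held in all 32 alternatives for 7 members. Gimap9 was -0.023 with quantile normalization, -0.00093 with DESeq2, and -0.091 to 0.088 without single libraries. For DMF + GSH against Ctrl, where no member was called, leaving out libraries gave -0.035 to 0.25 for Gimap1, -0.28 to 0.057 for Gimap3, -0.16 to 0.091 for Gimap4, -0.046 to 0.19 for Gimap5, -0.15 to 0.20 for Gimap6, -0.099 to 0.44 for Gimap7 and -0.25 to 0.056 for Gimap8. Gimap7, with 112 to 409 reads per library, had the widest intervals.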
